A study of Mus musculus with 10 samples.

Results

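Broad regions of histone H4 acetylation (H4Ac) were followed in mouse embryonic fibroblasts without either MyoD or Myf5 of their own (genotype MyoD-/-; Myf5-/-). A lentivirus delivered MyoD, Myf5 or, as a control, GFP (green fluorescent protein), and 1 H4Ac peak list was deposited for each of these 3 populations. The peaks of the 3 lists were merged where they shared at least 1 bp. A merged region of 1000 bp or more that held peaks of all 3 lists was counted as a broad shared region. By this rule there were 2716 broad shared regions among 45627 merged regions, or 5.95% of the regions and 18.8% of the merged bases.

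All groups carried the double mutation. Differentiation medium was given 24 h after infection, and the harvest followed 20 h later. The H4Ac lists came from native chromatin cut with micrococcal nuclease. A MyoD list from cells with MyoD, a Myf5 list from cells with Myf5 and a mock list for each antibody from cells with GFP came from crosslinked, sonicated chromatin. The MyoD and the Myf5 list each covered 2 replicates by their titles, and the other 5 lists covered 1 sample each. The series also holds 3 input samples, which were not used here. With 1 list per population there is no replicate error, so the differences between lists below are descriptions of these lists, without a p-value. Ranges in brackets after a share are exact (Clopper-Pearson) 95% binomial intervals. They cover counting error only, and neighbouring regions are not independent. The depth of each library is unknown from these files. The transgenes were expressed in fibroblasts from a virus, so the binding is that of introduced factors and not of factors in muscle precursors. No expression was measured, so the fibroblast label could not be set against marker genes.

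Acetylation of histone H4 is a mark of active chromatin: it loosens contacts between nucleosomes and is read by bromodomain proteins. Long unbroken stretches of acetylated nucleosomes are known from active promoters and from clusters of enhancers. Both myogenic factors are basic helix-loop-helix proteins that bind E-box motifs and start the skeletal muscle programme, and MyoD is known to recruit histone acetyltransferases. Positions are given in the mouse build mm9. No genes were named at them, since no annotation of that build was used here.

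Broad H4Ac regions were almost always shared. Of all merged regions of 1000 bp or more, 96.9% held peaks of the 3 lists, and 86 held peaks of only 1 or 2 lists. Of these 86, 30 held peaks of the MyoD and Myf5 lists, 23 of the Myf5 and GFP lists and 19 of the MyoD and GFP lists. Another 8 held peaks of the Myf5 list only, 6 of the GFP list only and 0 of the MyoD list only. Because peaks of any list can lengthen a merged region, breadth and sharing are not independent here. The broad shared regions were 14.6% of the 18611 regions with peaks of all 3 lists, and the other 15895 of these, which were narrower, are used below for comparison. The broad regions had a median width of 1256 bp with quartiles of 1104 and 1523 bp. Most, 1990, were under 1500 bp wide, 513 were from 1500 to under 2000 bp, 196 from 2000 to under 3000 bp, and 17 were 3000 bp or wider.

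At the width limit itself, the nearest regions inside, at 1000 bp each, lay at chr10:56188436-56189435, chr10:90732761-90733760 and chr11:11720500-11721499. The nearest below, at 999 bp each, lay at chr2:22626005-22627003, chr2:164658246-164659244 and chr9:85735784-85736782. The highest coverage in the GFP list was 40, 44 and 53 reads in the 3 regions at 1000 bp, against 86, 66 and 134 reads in the 3 regions at 999 bp. Each had 1 or 2 peaks per list. Ties in width were broken by chromosome and start, and 3 regions on each side allow no comparison of strength.

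The widest region, at chr11:3052157-3065164, was 13008 bp wide and stands apart from the rest. It was 1 unbroken peak in each list, of 7040 bp in the list of cells with MyoD, 13001 bp in that of cells with Myf5 and 13000 bp in that of cells with GFP. Its maximum H4Ac coverage of 498 reads with MyoD, 594 with Myf5 and 757 with GFP was also the highest of all broad regions in each list. The control coverage that the authors gave beside these peaks was 153, 163 and 183 reads with MyoD, Myf5 and GFP. Both mock antibodies had a peak there as well, with coverages of 175 (MyoD mock) and 389 (Myf5 mock). Neither MyoD nor Myf5 had a peak in it.

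The next widest regions were assembled from several peaks. The region at chr11:106640912-106647691, 6780 bp wide, consisted of 5 peaks with MyoD, 4 with Myf5 and 5 with GFP, which covered 6569, 6121 and 6409 bp. It held 2 MyoD and 3 Myf5 peaks. The region at chr19:5839454-5845888, 6435 bp wide, was broken into 6 peaks with MyoD, 6 with Myf5 and 3 with GFP. Its maximum coverage of 61 reads with MyoD, 75 with Myf5 and 98 with GFP placed it lower among the broad regions in the lists with a myogenic factor: place 1264 with MyoD and 1114 with Myf5, against place 582 with GFP. It held 3 MyoD peaks, and 1 long Myf5 peak ran across its whole length.

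Other wide regions differed in how far each list reached. At chr1:90169450-90175407, 5958 bp wide, the peaks covered 2340 bp with MyoD and 3094 bp with Myf5, against 5784 bp with GFP. That region carried peaks of both mock antibodies and control coverages of 28, 22 and 22 reads with MyoD, Myf5 and GFP. The part of this control signal in its uneven width was not tested. At chr11:86394903-86400526, 5624 bp wide, 1 peak of 5582 bp was listed with Myf5, while the MyoD list had 6 peaks and the GFP list 4. At chr13:5863343-5867007, 3665 bp wide, the MyoD list had 7 short peaks that covered 2096 bp and the Myf5 list 2 peaks that covered 2252 bp, against 2 peaks over 3597 bp with GFP. No factor peak lay in that region. The remaining 4 of the 10 widest regions, from 3633 to 4475 bp, had 3 to 5 peaks with MyoD, 1 or 2 with Myf5 and 2 to 4 with GFP. The most finely divided region, at chr1:138580027-138583065, had 8 peaks with MyoD, 2 with Myf5 and 3 with GFP over 3039 bp, and held 3 MyoD peaks.

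**Figure D1:**
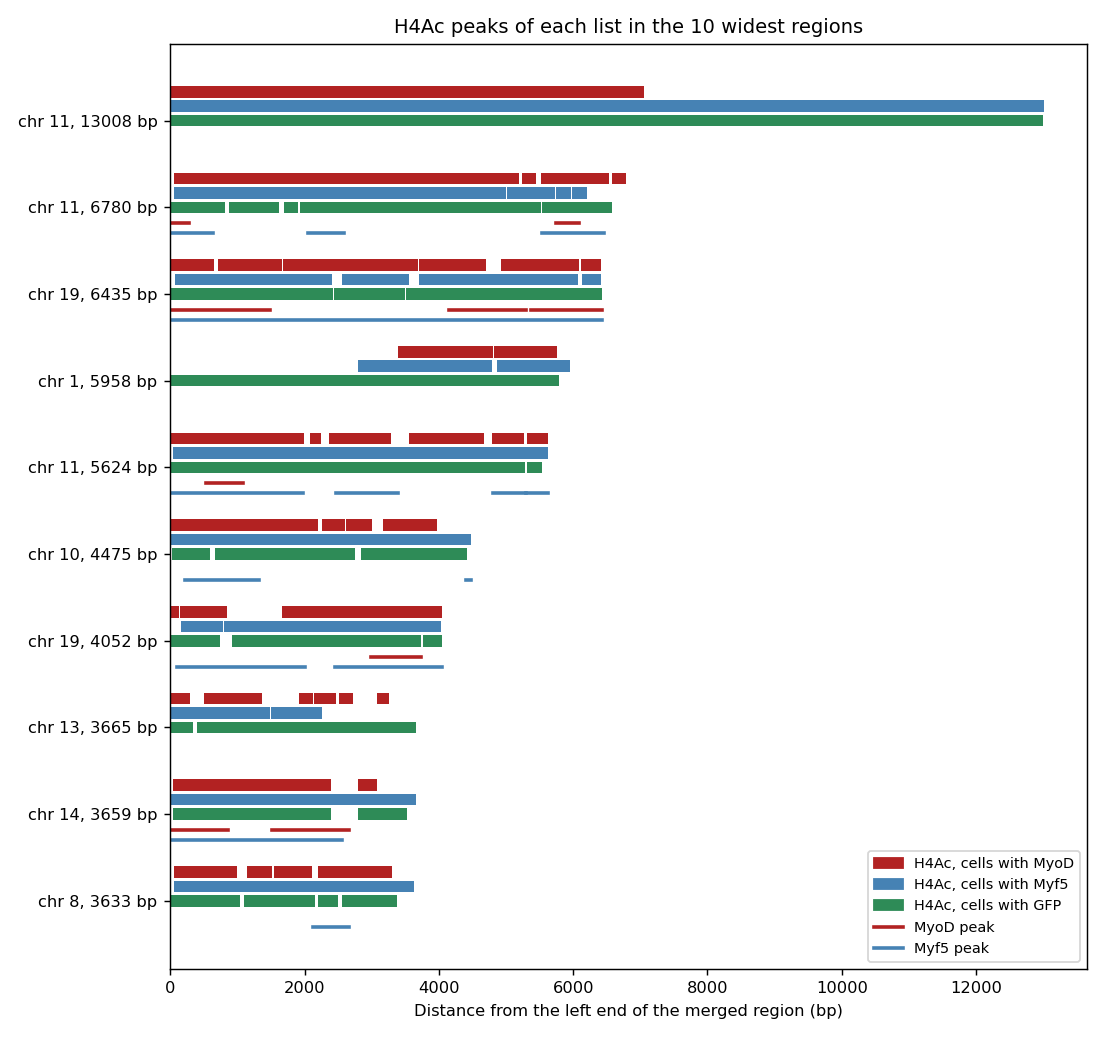
H4Ac peaks (thick bars) of the lists from cells with MyoD, Myf5 and GFP, and MyoD and Myf5 peaks (thin lines, cut at the region's ends), in the 10 widest broad shared regions, drawn to scale from the left end of each merged region in bp. The widest region, 13008 bp, is 1 bar in each list with no factor peak, while in the others the MyoD list breaks into up to 7 pieces and the Myf5 list often runs unbroken. Gaps of a few bp are too short to show.

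The same stretch of chromatin was listed in more pieces on average with MyoD than with Myf5 or GFP. A broad region held on average 1.72 peaks of the MyoD list, 1.20 of the Myf5 list and 1.40 of the GFP list. It was a single peak in 46.5% (44.6 to 48.4) of cases with MyoD, 82.2% (80.7 to 83.6) with Myf5 and 66.5% (64.6 to 68.2) with GFP. Region by region, the MyoD list had more pieces than the GFP list in 35.4% (33.6 to 37.2) of regions, the same number in 54.05% and fewer in 10.6%. The Myf5 list had more pieces than the GFP list in 11.05% (9.89 to 12.3) and fewer in 26.99% (25.3 to 28.7). These shares depended on which peaks were joined and kept. With peaks joined within 150 bp, 24.7% of regions were a single peak with MyoD, 40.6% with Myf5 and 34.4% with GFP, and within 500 bp 19.6%, 30.8% and 25.7%. With only H4Ac peaks of at least 1.5 times their cutoff, 72.2% were a single peak with MyoD, 90.5% with Myf5 and 83.7% with GFP, and the MyoD list had more pieces than the GFP list in 18.9% (17.2 to 20.7).

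Regions in 1 piece in all 3 lists numbered 958, or 35.3%, and 159 regions, or 5.85%, were in 2 or more pieces in all 3. A peak that reached 1000 bp on its own was present in 727 regions (26.8%) with MyoD, 2008 (73.9%) with Myf5 and 1134 (41.75%) with GFP. In 1030 regions, 37.9%, only the Myf5 list had such a peak. In 354 regions, 13.0%, no list had one, and the breadth came from joining shorter peaks. Wider regions were broken more: among the 213 regions of 2000 bp or more, 22.1% (16.7 to 28.2) were 1 piece with MyoD, 67.1% (60.4 to 73.4) with Myf5 and 33.8% (27.5 to 40.6) with GFP.

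**Figure D2:**
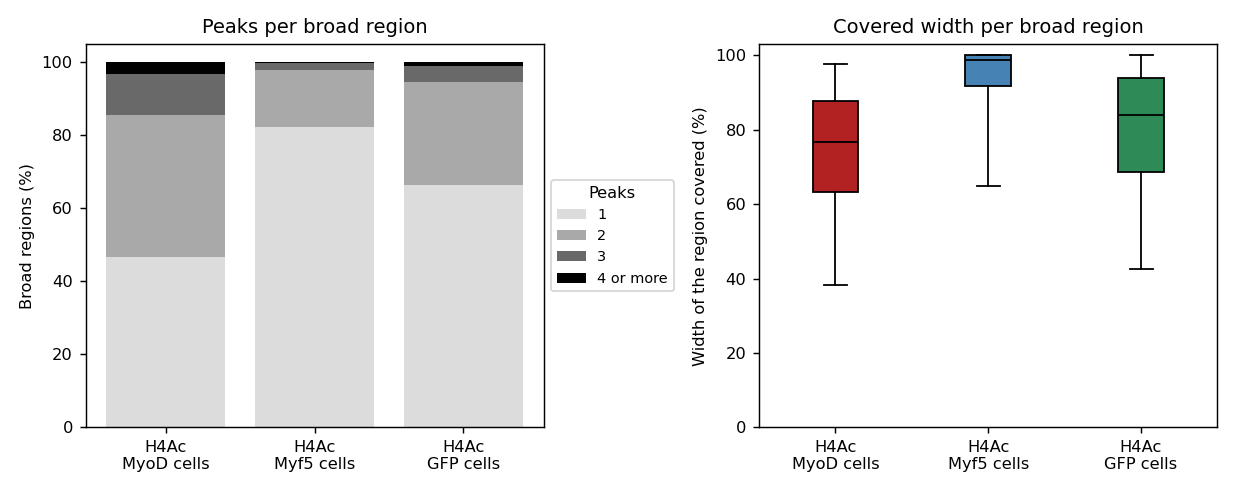
Left, share of the 2716 broad regions (%) by number of H4Ac peaks in the list of each population; right, share of each region's width (%) covered by the peaks of each list, with the median (line), quartiles (box) and the 5th and 95th percentiles (whiskers). Regions in 1 piece are most frequent with Myf5 (82.2%) and least with MyoD (46.5%), and median covered widths are 76.8%, 98.7% and 83.9% with MyoD, Myf5 and GFP.

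Covered width followed the same order as unbroken peaks. It was not independent of the choice of regions: in the 1030 regions where only the Myf5 list had a peak of 1000 bp or more, that list alone sufficed for the width limit. Peaks covered 74.3% of the bases of broad regions with MyoD, 93.0% with Myf5 and 79.75% with GFP. The median region was covered over 980 bp with MyoD, 1190 bp with Myf5 and 1041 bp with GFP. Covered width was smaller with MyoD than with GFP in 62.0% (60.1 to 63.8) of regions and larger with Myf5 than with GFP in 76.0% (74.3 to 77.5). The whole width was covered in 28 regions with MyoD, 968 with Myf5 and 150 with GFP.

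Most uncovered sequence lay at the ends of the regions rather than between peaks. Gaps between peaks made up 4.85% of the bases with MyoD, 0.929% with Myf5 and 2.75% with GFP, while uncovered outer ends made up 20.8%, 6.06% and 17.5%. The gaps were short, with medians of 58 bp over 1955 gaps with MyoD, 31 bp over 547 gaps with Myf5 and 61 bp over 1083 gaps with GFP. The narrower regions shared by all 3 lists had the same order, with 72.6% of their bases covered with MyoD, 89.7% with Myf5 and 80.4% with GFP. The lists as a whole differed in the same way: their median peak width was 264 bp with MyoD, 373 bp with Myf5 and 349 bp with GFP, and their coverage cutoffs were 19 to 26, 20 to 31 and 21 to 30 reads. A difference in chromatin between the populations and a difference between these libraries cannot be told apart.

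Most broad regions were among the stronger H4Ac sites of each list. Coverage was read within each list only, as the highest maximum coverage of the list's peaks in the region. The median region reached 59 reads with MyoD, 67 with Myf5 and 63 with GFP, and the lowest 20, 24 and 22 reads. Within its own list, the median broad region stood at the 87.6th percentile of peaks with MyoD, the 87.8th with Myf5 and the 84.0th with GFP. For the narrower shared regions these percentiles were 69.3, 65.5 and 63.6. Of the broad regions, 41.7% with MyoD, 42.8% with Myf5 and 34.1% with GFP were in the highest 10% of their list. Below the list's median were 6.1%, 4.6% and 9.6%. A region took its highest peak, and broad regions held more peaks, on average 1.72, 1.20 and 1.40 with MyoD, Myf5 and GFP. Narrower regions held 1.133, 1.035 and 1.049, and this difference was not corrected for. Among the 1000 peaks of highest coverage, 362 (36.2%) lay in broad regions with MyoD, 437 (43.7%) with Myf5 and 331 (33.1%) with GFP. Of all peaks of each list, 12.7% lay in broad regions with MyoD, 10.2% with Myf5 and 12.2% with GFP. Breadth and height were nevertheless only loosely tied among the broad regions themselves, with Spearman coefficients between width and coverage of 0.247 with MyoD, 0.256 with Myf5 and 0.225 with GFP over 2716 regions. Width and coverage come from the same peaks and the same cutoffs.

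Some of the broad regions with the highest coverage ranked near the top of every list, and others ranked lower in a list. At chr1:31006652-31008320 the coverage was 392 reads with MyoD, 342 with Myf5 and 438 with GFP, among the 5 highest broad regions of every list. At chr1:162143114-162144718 it was 380, 373 and 388 reads with MyoD, Myf5 and GFP. The region at 31006652 held 1 MyoD peak with a coverage of 39 and 2 Myf5 peaks with a coverage of up to 94, and the other no factor peak. At chr17:3081190-3083390 coverages of 376, 546 and 401 reads with MyoD, Myf5 and GFP stood beside control coverages of 130, 122 and 131 and peaks of both mock antibodies. At chr18:14840714-14841768, the third highest region with GFP, the coverage was 312 reads with MyoD and 208 with Myf5, against 434 with GFP, which put it at place 7 with MyoD and place 38 with Myf5. At chr10:36693643-36694765, the fifth highest with GFP, it was 251, 237 and 398 reads with MyoD, Myf5 and GFP, at places 17, 21 and 5.

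Ranks among the 2716 regions correlated across lists with Spearman coefficients of 0.852 between MyoD and GFP, 0.780 between Myf5 and GFP and 0.835 between MyoD and Myf5. These are descriptions over regions that share their underlying sequence and the peak caller. Of the 272 highest regions in each list, 153 were common to all 3, and 192 to MyoD and GFP, 172 to Myf5 and GFP and 192 to MyoD and Myf5. The quartiles of the rank difference were -9.47 and 8.23 percentile points between MyoD and GFP and -9.93 and 11.8 between Myf5 and GFP. A difference of 50 points or more separated MyoD from GFP in 15 regions, Myf5 from GFP in 54 and MyoD from Myf5 in 24.

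MyoD and Myf5 bound in a large share of the broad regions. A MyoD peak overlapped 1175 of them by at least 1 bp, or 43.3% (41.4 to 45.1), where the share over all merged H4Ac regions was 28.8%. A Myf5 peak overlapped 1785, or 65.7% (63.9 to 67.5), where the share over all merged regions was 46.3%. Both factors had a peak in 1158 regions (42.6%), Myf5 alone in 627 (23.1%), MyoD alone in 17 (0.626%) and neither in 914 (33.7%). The Myf5 list was the longer one, with 93787 peaks against 45015 in the MyoD list, so the single-factor shares rest on lists of unequal length.

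Wider regions meet more peaks by width alone, so peak centres were also counted per kilobase. MyoD peak centres numbered 0.247 per kb in broad regions, against 0.246 per kb in the narrower shared regions and 0.249 per kb over all merged regions. Myf5 centres numbered 0.379 per kb in broad regions, against 0.402 and 0.395 per kb in the same sets. By this count breadth went with no higher density of factor binding, although H4Ac regions of any width held far more centres than the genome between the first and the last peak of each chromosome, at 0.0176 per kb for MyoD and 0.0366 per kb for Myf5. The share of regions with a MyoD peak was 38.8% (36.2 to 41.5) in the narrowest class, with a median width of 1102 bp, and 54.9% (48.0 to 61.7) at 2000 bp or more, while the centres per kb were 0.230 and 0.258. For Myf5 the shares in those width classes were 62.7% (60.1 to 65.3) and 75.6% (69.2 to 81.2), with 0.385 and 0.332 centres per kb.

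The factor peaks in broad regions were of ordinary to high strength. The 1242 MyoD peaks there had a median coverage of 61, against 59 at narrower shared regions and 49 over the whole MyoD list. The 1931 Myf5 peaks had a median of 78, against 72 at narrower shared regions and 55 over the whole list. Of the MyoD peaks in broad regions, 18.9% (16.8 to 21.2) were in the highest 10% of their list, and of the Myf5 peaks 19.6% (17.9 to 21.5). At narrower shared regions these shares were 16.6% (15.5 to 17.8) and 16.9% (16.0 to 17.8).

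Binding was denser toward the middle of a broad region than at its ends. The middle 20% of the width held 26.96% (24.1 to 29.9) of 931 MyoD centres and 27.6% (25.3 to 30.04) of 1429 Myf5 centres. The outermost 20% on each side together, 40% of the width, held 30.9% (28.0 to 34.0) and 30.1% (27.7 to 32.5). The narrower shared regions did not show this order at their ends. Their outermost 100 bp held 0.2905 MyoD and 0.4305 Myf5 centres per kb, against 0.211 and 0.390 at 100 to 200 bp inside. In the 100 bp just left of the region's centre, the highest step for each factor, MyoD centres numbered 0.354 per kb and Myf5 centres 0.582 per kb. The fall away from the centre was not even for MyoD. Its centres numbered 0.173 and 0.169 per kb at 400 to 500 bp to the left and right. At 600 to 700 bp they numbered 0.265 and 0.225 per kb. At 1900 to 2000 bp to the right, beyond the ends of most regions, MyoD and Myf5 centres numbered 0.0626 and 0.114 per kb.

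In the MyoD and GFP lists, the uncovered ends of the regions held a smaller share of MyoD centres than of bases, which was not so in the Myf5 list. In the H4Ac list of cells with MyoD, 83.9% (81.4 to 86.2) of MyoD centres lay inside a peak, where peaks covered 74.3% of the bases. Uncovered ends held 10.3% (8.43 to 12.4) of MyoD centres on 20.8% of the bases, and gaps between peaks 5.80% (4.39 to 7.501) on 4.85% of the bases. For the Myf5 centres in the list of cells with Myf5, 94.5% (93.2 to 95.6) lay inside a peak, where 93.0% of the bases were covered. In the list of cells with GFP, which carry neither factor, 87.3% (85.02 to 89.4) of MyoD centres lay inside a peak on 79.75% of the bases, and uncovered ends held 9.34% (7.55 to 11.4) on 17.5% of the bases. In the list of cells with Myf5, uncovered ends held 6.02% (4.57 to 7.74) of MyoD centres on 6.06% of the bases. The share of MyoD centres outside the peaks of the MyoD list was 25.8% with peaks joined within 150 bp and 39.4% within 500 bp, where joining takes the gaps between peaks into the regions.

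**Figure D3:**
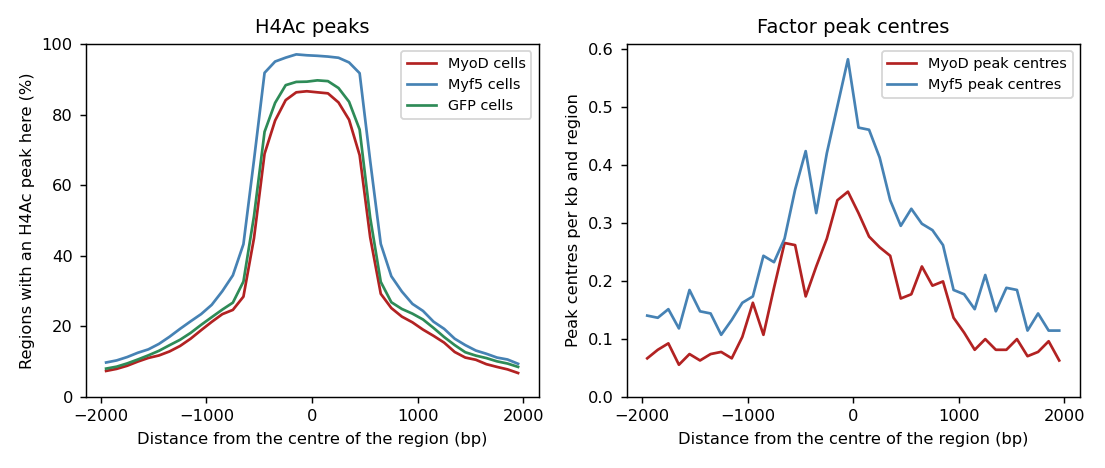
Left, share of the 2716 broad regions (%) with an H4Ac peak of each population at each distance from the region's centre, in steps of 100 bp; right, MyoD and Myf5 peak centres per kb and region at the same distances. H4Ac is called at the centre in 86.6% of regions with MyoD, 96.8% with Myf5 and 89.3% with GFP, and factor centres are most frequent near the centre, at 0.354 per kb for MyoD and 0.582 per kb for Myf5.

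Regions with a strong MyoD peak ranked higher in H4Ac in cells with MyoD than in cells with GFP. The 1175 regions with a MyoD peak were split into 3 classes of equal size by the coverage of their strongest MyoD peak. In the strongest class of 392 regions, with MyoD coverages of 98 to 1678, the median H4Ac rank among broad regions was 62.5 percentile points with MyoD, 54.4 with Myf5 and 51.6 with GFP. The median difference between MyoD and GFP was 5.71 points, and 67.3% (62.5 to 72.0) of the class ranked higher with MyoD than with GFP, where the share over all broad regions was 47.8%. Between Myf5 and GFP the median difference was 1.88 points, and 55.1% (50.0 to 60.1) ranked higher with Myf5, where the share over all broad regions was 51.7%. Set directly against each other, 61.5% (56.5 to 66.3) ranked higher with MyoD than with Myf5, where the share over all broad regions was 49.1%.

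Below that strength the share was lower. In the middle class, with MyoD coverages of 46 to 97, 51.8% (46.7 to 56.8) ranked higher with MyoD than with GFP. In the weakest class, with coverages of 28 to 46, 44.5% (39.5 to 49.6) did so, and among the 1541 regions without a MyoD peak 42.7% (40.2 to 45.2). Ranks among a fixed set of regions must balance, so a gain in one class is set off by losses in others.

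Covered width moved in the same way. H4Ac peaks covered more of the region with MyoD than with GFP in 51.0% (45.9 to 56.1) of the strongest class, 44.1% of the middle class, 34.3% of the weakest and 33.8% (31.4 to 36.2) of regions without a MyoD peak. The number of pieces varied little over these classes, with 1.71, 1.78, 1.74 and 1.70 peaks per region in the MyoD list. With Myf5, covered width exceeded that with GFP in 75.3%, 71.7%, 72.9% and 78.0% of the same 4 classes.

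The narrower shared regions showed a similar pattern, and the difference between broad and narrower regions was not tested. Where their MyoD peak had a coverage of 98 or more, 65.2% (62.7 to 67.6) of 1519 narrower regions ranked higher among themselves with MyoD than with GFP, and 52.3% (49.8 to 54.9) ranked higher with Myf5 than with GFP. Without a MyoD peak, 47.2% (46.2 to 48.1) of 11050 narrower regions ranked higher with MyoD than with GFP.

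**Figure D4:**
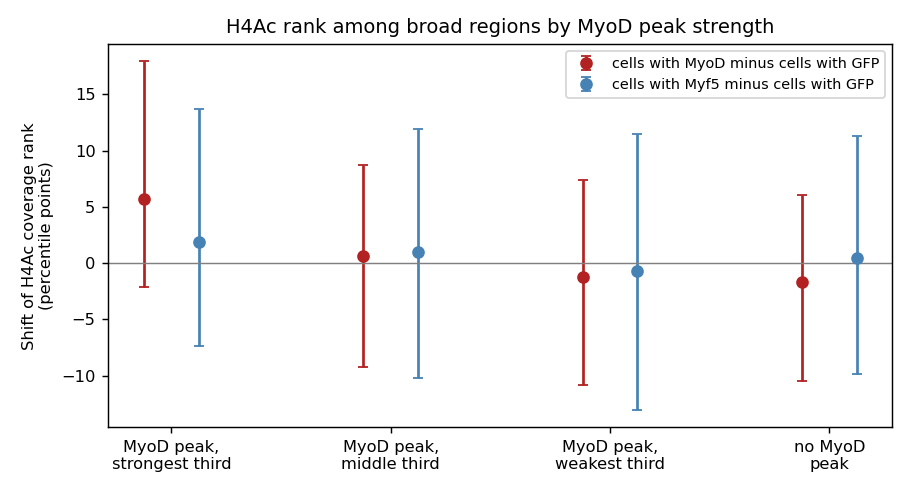
Difference in H4Ac coverage rank among the 2716 broad regions (percentile points, median with quartiles) between cells with MyoD and GFP (left of each pair) and between cells with Myf5 and GFP (right), by the coverage class of the strongest MyoD peak in the region. The median difference between MyoD and GFP is 5.71 points in the strongest class and -1.71 points without a MyoD peak, and the quartile ranges overlap across classes.

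The strongest MyoD peak in a broad region, with a coverage of 1678, reached into a pair of neighbouring regions at chr1:88329768-88330980 and chr1:88331160-88332876. A Myf5 peak with a coverage of 1441 lay across both. The left region had an H4Ac coverage of 146 reads with MyoD, 146 with Myf5 and 115 with GFP, and the right one 224, 256 and 242 reads. The left region thus ranked 9.44 percentile points higher with MyoD than with GFP and the right one 0.368 points.

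At chr6:83086409-83087716 a MyoD peak with a coverage of 809 and a Myf5 peak with a coverage of 1472 stood in a region of 1308 bp. Its H4Ac coverage was 92 reads with MyoD, 73 with Myf5 and 56 with GFP, at ranks of 80.3, 56.6 and 40.6 percentile points. H4Ac peaks covered 1308 bp with MyoD, 1081 bp with Myf5 and 727 bp with GFP, so rank and covered width had the same order. At chr2:126148491-126149784, which held the strongest Myf5 peak, with a coverage of 1719, the H4Ac coverage was 102 reads with MyoD, 86 with Myf5 and 95 with GFP. There the rank difference between Myf5 and GFP was -8.34 percentile points, and its covered width was 811 bp with Myf5 against 1138 bp with GFP.

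The regions that gained most rank with MyoD over GFP were picked by that difference, so their own sizes are descriptions. At chr10:40242957-40244434 the H4Ac coverage was 87 reads with MyoD and 88 with Myf5, against 35 with GFP, and the region held a MyoD peak with a coverage of 198. At chr18:53423201-53424939 it was 90 reads with MyoD, 36 with Myf5 and 38 with GFP, and only the MyoD list placed the region high. That region nevertheless held peaks of both factors, MyoD with a coverage of 127 and Myf5 with 312. At chr10:95772173-95773413 it was 73 reads with MyoD, 47 with Myf5 and 25 with GFP, beside a MyoD peak with a coverage of 687. All 5 regions with the largest gain carried peaks of both factors. None of the 5 with the largest loss carried a MyoD peak, and 1 carried a Myf5 peak. Over all broad regions 42.6% carried peaks of both factors and 43.3% a MyoD peak, and 5 regions each allow no comparison with these shares. The largest loss was at chr2:30720011-30721247, with 47 reads with MyoD and 46 with Myf5, against 121 with GFP.

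The largest gains with Myf5 over GFP did not all lie at factor peaks. The largest was at chr11:87206500-87207522, with 66 reads with MyoD and 134 with Myf5, against 44 with GFP, and no factor peak. Of the 5 largest gains with Myf5, 3 held a Myf5 peak. The largest loss was at chr12:25782638-25783752, with 72 reads with MyoD and 34 with Myf5, against 125 with GFP, although a Myf5 peak with a coverage of 252 lay there. The other 4 losses held 1 Myf5 peak among them. These shares stand beside 65.7% of all broad regions with a Myf5 peak, and with 5 regions each they allow no comparison.

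Broad regions, like the narrower shared ones, were mostly of middling GC content, and a smaller share of them was in the lowest bin. The authors assigned each peak to 1 of 5 GC bins, and a region took the bin of its widest peak. Of the broad regions, 6.19% (5.31 to 7.16) were at or under 40% GC, 33.4% from above 40 to 45%, 43.2% from above 45 to 50%, 15.0% from above 50 to 55% and 2.21% (1.69 to 2.84) above 55%. In the narrower shared regions the lowest bin held 11.9% (11.4 to 12.4) and the highest 1.98% (1.765 to 2.204). The bins from above 40 to 45% and from above 45 to 50% held 35.0% and 38.65% of them. The strongest peak had the same bin in all 3 lists in 2546 regions, 93.7%.

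Low-GC regions were broken more finely in the MyoD and GFP lists, but hardly in the Myf5 list, and were bound less often. A region at or under 40% GC held on average 2.202 peaks with MyoD, 1.29 with Myf5 and 1.79 with GFP. One above 55% GC held 1.48, 1.27 and 1.18 peaks in the same lists. A MyoD peak lay in 60 of the 168 regions in the lowest bin (28.5 to 43.5%) and 33 of the 60 in the highest (41.6 to 67.9%), and a Myf5 peak in 88 of 168 (44.5 to 60.1%) and 51 of 60 (73.4 to 92.9%). Rank differences moved with GC too: the median difference between Myf5 and GFP was 5.82 points in the lowest bin and -2.81 points in the highest. Within the bin from above 45 to 50% GC, 66.3% (58.8 to 73.2) of 178 regions with a MyoD peak of the strongest class ranked higher with MyoD than with GFP, against 40.8% (37.0 to 44.8) of 639 regions without a MyoD peak. Within the bin from above 40 to 45% the shares were 75.5% (66.2 to 83.3) of 106 and 44.9% (40.8 to 49.1) of 570. Within the bin from above 50 to 55% they were 53.75% (42.2 to 65.0) of 80 and 35.5% (28.9 to 42.6) of 197.

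Background signal was low at nearly all broad regions. The median control coverage, as the highest of a list's peaks in a region, was 6 reads with MyoD, 5 with Myf5 and 5 with GFP. Taken in the same way it was 4 reads in each list at the narrower shared regions, and per peak 4 reads over each whole list. In at least 1 list, the authors' control p-value was at or under 1e-05 at 7 of the 2716 broad regions. Of all 45627 merged regions, 29 (0.0636%) had one, so such regions were rare. Broad regions made up 5.95% of the merged regions but 18.8% of the merged bases, and no share in this paragraph was corrected for width. A mock peak of either antibody lay in 6 broad regions, 0.221% (0.0811 to 0.480), where 0.125% of all merged regions held one. The widest region on chromosome 11, the region at chr1:90169450-90175407 and that at chr17:3081190-3083390 were on both lists, as was chrX:166504561-166506310.

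The broad regions were unevenly spread over the chromosomes. They made up 8.48% (7.61 to 9.41) of the merged H4Ac regions on chromosome 10, 7.51% (6.48 to 8.64) on chromosome 12 and 7.33% (6.56 to 8.16) on chromosome 1. Chromosome 18 followed closely with 7.28% (6.03 to 8.70). The lowest shares were 3.88% (3.04 to 4.88) on chromosome 7 and 1.54% (0.796 to 2.67) on the X chromosome. The authors' control coverage at H4Ac peaks, averaged over the 3 lists, was also highest on chromosomes 10, 1 and 12, at 5.34, 4.86 and 4.84 reads, and lowest on chromosomes 7 and X, at 3.16 and 2.19 reads. On chromosome 18 it was 4.25 reads, below those 3 chromosomes although the share of broad regions was close to that on chromosome 1. Over the 19 autosomes, the share of broad regions and the control coverage had a Spearman coefficient of 0.905, while the share of the narrower shared regions had one of -0.358. That control coverage included the peaks of the broad regions themselves. With control coverage from narrower regions only, the coefficients were 0.858 and -0.3895. The control coverage given with the MyoD and the Myf5 peaks gave coefficients of 0.846 and 0.823 with the share of broad regions. The part of this chromosome-wide control level in the breadth of regions was not tested. Chromosomes 1, 10 and 12 together held 807 broad regions, 7.79% (7.28 to 8.32) of their merged regions, against 1897 or 5.50% (5.26 to 5.75) on the other 16 autosomes.

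**Figure D5:**
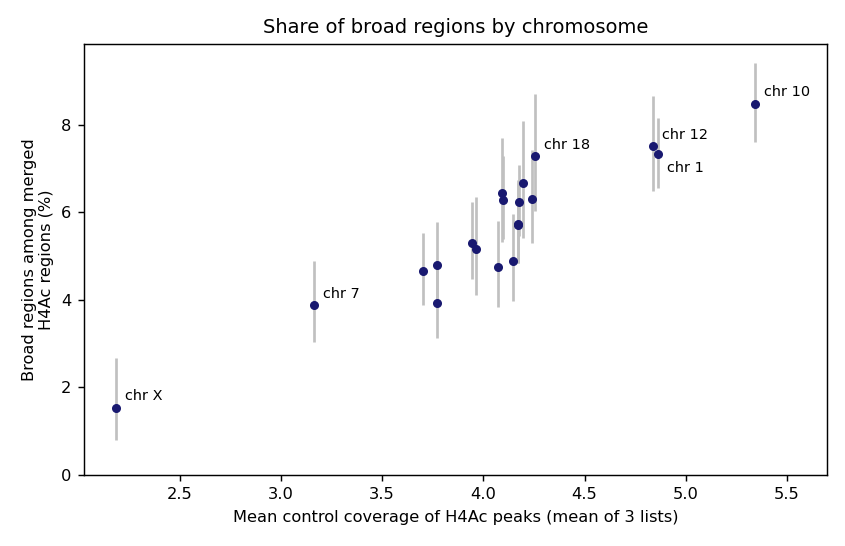
Broad shared regions as a share of all merged H4Ac regions of each chromosome (%, with exact 95% binomial intervals) against the mean control coverage that the authors gave for H4Ac peaks there (reads, mean of the 3 lists), 1 point per chromosome. Chromosome 10 is highest on both axes (8.48% and 5.34 reads) and the X chromosome lowest (1.54% and 2.19 reads).

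Part of the broad regions lay close to one another. The median distance to the nearest other broad region was 80370 bp, and 624 regions, 23.0%, had another within 10000 bp. These formed 264 runs of 2 or more, of which 61 had at least 3 regions. The longest run, on chromosome 10 from 119854280 to 119903454, held 14 broad regions over 49175 bp, of which 5 carried a MyoD peak and 6 a Myf5 peak. A run of 7 lay on chromosome 1 from 164132327 to 164156480, with 3 regions that carried a MyoD peak and 5 a Myf5 peak. The pair at the strongest MyoD peak belonged to a run of 6 on chromosome 1 from 88329768 to 88345315, where 5 of the 6 regions carried a MyoD peak and 5 a Myf5 peak. In that pair 1 peak of each factor reached into both regions, so these are counts of regions and not of separate peaks. Over all broad regions 43.3% carried a MyoD peak and 65.7% a Myf5 peak, and so few regions per run allow no comparison. Both of the other runs of 6 were on chromosome 10, and 1 of them, from 119829135 to 119843898, lay close to the longest run. All of the runs of 6 or more lay on chromosomes 1 and 10, which held 308 and 321 of the 2716 broad regions. Control coverage was among the highest there, and its part in the runs was not tested.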

How the data were processed

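Peak lists from chromatin immunoprecipitation and sequencing were used for 7 of 10 samples, in 7 groups by antibody and transgene. Per the labels' protocols, factor chromatin was fixed for 11 min and sonicated, and H4Ac chromatin was digested for 18 min with 15 units of micrococcal nuclease. CASAVA 1.8.2 and BWA 0.7.5 are named in the submitters' processing notes, with builds mm9 and hg19 given no role; the last peak on chromosome 1 ends at 197068167, so positions were read as mm9. Not given in the sources used here are the peak caller, the control of the H4Ac lists and how factor replicates were joined.

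Per the file headers, each deposited signal value is the authors' maximum coverage in a peak, in whole numbers, beside the authors' coverage cutoff for a GC bin and a control coverage. The deposited p-value of each peak and of its control is the authors' own, and only control p-values of 1e-05 or lower were used, to find raised control regions. A placeholder in 1 control value was treated as missing.

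H4Ac peaks were merged at 1 bp of overlap, and coverage was ranked within a list only. Factor peaks were counted by 1 bp of overlap, and placed by their centres. The regions, classes and named positions were chosen with earlier results of these data known. The rule for named positions gave 41 distinct regions (widest, highest coverage, most pieces, strongest factor peaks, largest rank differences): the first of each class are described and the others are given as ranges or counts. The comparison of rank differences with narrower regions and the share by chromosome were chosen after values were seen. The merging step, tested on 2000 simulated regions, recovered 100% of them. Alternatives were other merging distances, width limits, coverage limits, list lengths, overlap rules and rank measures. The tools were scipy 1.17.1, pandas 2.3.3 and numpy 2.4.6 under Python 3.11.15, with figures from matplotlib 3.10.9.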

Additional observations from a re-analysis of the deposited data

How the results depend on the processing

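Under each other set of regions tried, covered width was smaller with MyoD and larger with Myf5 than with GFP in most regions, and regions in 1 piece were fewest in the MyoD list and most frequent in the Myf5 list. The number of broad shared regions was 4806 when peaks within 150 bp were joined, 7433 within 500 bp, and 4804, 726 and 213 with width limits of 800, 1500 and 2000 bp. With those 3 width limits, a MyoD peak lay in 40.03%, 49.0% and 54.9% of regions, a Myf5 peak in 61.7%, 68.9% and 75.6%, and the MyoD list had more pieces than the GFP list in 29.7%, 43.3% and 45.5%. The last share was 18.9% with only H4Ac peaks of at least 1.5 times their cutoff and 31.3% with H4Ac lists of equal length. Regions covered more with Myf5 than with GFP were 69.6% and 64.3% at joining distances of 150 and 500 bp and 79.2% and 81.2% at limits of 1500 and 2000 bp, where at 2000 bp 65.3% were covered less with MyoD than with GFP. A MyoD peak lay in 32.7% and a Myf5 peak in 50.4% by centre, in 32.5% and 49.1% with 50% of the factor peak inside, and in 27.6% and 45.4% with the stronger part of each list. With factor lists of equal length the Myf5 share was 44.3%. In the class of strongest MyoD peaks, 56.4% (39.6 to 72.2) ranked higher with MyoD than with GFP and 48.7% with Myf5 than with GFP at 2000 bp, among 39 regions, the Myf5 share on the other side of 50% from the value reported. When the classes were set by Myf5 peaks, 61.3% of the strongest class ranked higher with MyoD than with GFP. In that class 53.3% (49.2 to 57.35) ranked higher with Myf5 than with GFP, where the share over all broad regions was 51.7%. The cause of these shifts was not tested.

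Without chromosomes 1, 10 and 12, an alternative chosen after seeing the data, 1909 broad regions were left and a MyoD peak lay in 41.5%. No group has a second list, sequencing depth is unknown, and 3 shared lists define the regions, so an absent peak may be a peak just under a cutoff. The lists give no summit position, so placing factor peaks by a position of their own could not be run. No paired analysis was possible because each group has 1 list.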
